A study of Mus musculus with 24 samples.

Results

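The 8 genes described here encode regulators of the type 1 program of T cells. They are the T-box factors Tbx21 (the protein is T-bet) and Eomes, the Runt-domain factors Runx1, Runx2 and Runx3, their partner subunit Cbfb, the homeobox factor Hlx and the zinc-finger factor Zeb2. They were chosen by gene symbol. Each matched 1 row among the 56748 genes of the deposited count table, and all 8 were among the 15885 genes with enough reads to be tested.

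Messenger RNA was measured in 24 libraries of wild-type (WT) mouse T cells grown in culture. There were 6 libraries each of Th1, Th17 and regulatory T cells (Treg), all polarised in vitro, and of activated CD8 T cells. In each cell type 1 library had received the vehicle DMSO, and each of the others had received a different kappa opioid receptor agonist of the perhydroquinoxaline series, at 0.1 µM and for up to 5 days. The agonists are called here WMS-64, WMS-75, WMS-76, WMS-83 and WMS-200. The sample titles add a suffix to these names, which for all but WMS-76 changes from cell type to cell type (WMS-200-01 in Th1, WMS-200-04 in CD8). In CD8 the treatment labels of WMS-64, WMS-75 and WMS-83 differ from the titles and repeat the suffix of Treg. The treatment protocol lists 1 suffix for each agonist, so it is not certain that the 4 cell types received the same compound. The study asked how such agonists affect T cells. Libraries of 1 cell type are thus replicates of the cell type with different treatments, and none of the 24 combinations was repeated. The labels do not say which libraries came from separate animals or cultures, so errors and p-values measure only the spread between these libraries.

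T-bet is the factor that turns an activated CD4 T cell into a Th1 cell, and Eomes is its close relative, best known from cytotoxic CD8 and natural killer cells. Runx proteins bind DNA together with Cbfb. Runx3 works with T-bet at the interferon gamma gene and silences Cd4 in the CD8 lineage, whereas Runx1 is known as a partner of Foxp3 in Treg cells. Hlx acts with T-bet in Th1 cells, and Zeb2 acts after T-bet in terminally differentiated CD8 effector cells.

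The libraries held between 15188284 and 21946887 counts. Several marker transcripts followed the labels. Ifng, the Th1 cytokine interferon gamma, was at 526 to 682 CPM in Th1 and 1316 to 1475 CPM in CD8. Il17f was at 687 to 1012 CPM in Th17 and at most 3.45 CPM elsewhere. Foxp3 was highest in Treg (162 to 357 CPM) and Cd8a was highest in CD8 (359 to 408 CPM). CPM stands for counts per 1e+06 counts after TMM scaling of the libraries. Not all listed markers followed the labels. The Th1 markers Cxcr3 and Il18r1 had means of 16.7 and 76.2 CPM in Th1 but 29.9 and 573 CPM in Treg. The Th17 marker Ccr6 had a mean of 31.6 CPM in Th17 and 57.1 in Treg. The Treg marker Il2ra had a mean of 1070 CPM in Treg and 1894 in CD8. Cd8a also reached 33.9 to 111 CPM in Th17 against 12.7 to 14.7 CPM in Th1, and Cd4 was at 167 to 196 CPM in CD8. Whether the cultures held cells of another type was not tested. The Treg libraries stood apart as a group. Genes for ribosomal proteins took 1.60% to 2.68% of their counts against 8.60% to 11.4% in the other cell types, and longer genes were relatively higher in Treg (Spearman correlation of the Th1 minus Treg log2 difference with gene length -0.325 over 11483 genes, which share these libraries). The name of each column, in which CD8 is called Tc1, also holds a number after WT whose meaning is not stated. It is 4 for all Th1 libraries and for these alone, so in Th1 it cannot be told apart from the cell type. All CD8 libraries carry number 2, which 4 Treg libraries and the Th17 DMSO library share. One Th1 library, with WMS-83, has a title that reads Th17 while its other labels and its column read Th1, and Tbx21 was at 183 CPM in it.

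The positions that follow are those of the deposited table, whose genome build is not stated in the sources used here.

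Both T-box factors, Tbx21 (ENSMUSG00000001444, chromosome 11, 96988897 to 97006157, minus strand) and Eomes (ENSMUSG00000032446, chromosome 9, 118307280 to 118315200, plus strand), were high in Th1 and CD8 and low in Th17, with Treg between. Tbx21 spanned 183 to 220.3 CPM in Th1 (median 202) and 211 to 242 in CD8 (222). It spanned 24.6 to 32.3 CPM in Treg (28.8) and 8.41 to 11.1 in Th17 (9.61). The Th1 and CD8 ranges overlapped, and every library of these 2 types lay above every Treg library, which in turn lay above every Th17 library. Th1 exceeded Th17 20.8-fold (log2 difference 4.38 ± 0.08 SE) and Treg 7.03-fold (2.81 ± 0.07), with edgeR adjusted p of 3.53e-24 and 4.11e-21. Treg exceeded Th17 2.95-fold (adjusted p = 1.39e-15). CD8 and Th1 differed by 0.16 ± 0.07 on the log2 scale, which missed the threshold of 0.05 (95% interval 0.02 to 0.29, adjusted p = 0.123). The latter difference passed when only these 12 libraries were fitted (adjusted p = 0.00428) and without the Th1 library with WMS-75 (adjusted p = 0.0436).

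Eomes separated all 4 cell types. Its CD8 libraries lay between 82.4 and 94.1 CPM (median 86.3) and its Th1 libraries between 38.4 and 50.5 (47.4). Treg spanned 11.01 to 29.4 CPM (14.6), and Th17 spanned 1.31 to 3.71 (2.37). No range overlapped another, and all 6 differences between cell types passed the test. CD8 exceeded Th1 1.94-fold (log2 difference 0.96 ± 0.16, edgeR adjusted p = 0.000252), where Tbx21 differed by 0.16. CD8 exceeded Th17 36.7-fold (5.20 ± 0.22, adjusted p = 1.79e-14). Within Treg the spread was wide: the libraries with DMSO and WMS-200, which carry WT number 3, stood at 26.8 and 29.4 CPM, and the 4 with WT number 2 stood at 11.01 to 16.4 CPM. With those 4 alone, an alternative chosen after seeing the data, Th1 exceeded Treg by 1.78 instead of 1.40 on the log2 scale and Treg still exceeded Th17 by 2.45.

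Levels of different genes can be compared once counts are divided by gene length (FPKM). Tbx21 made up 88.1% ± 1.62 (SD, n = 6) of the summed FPKM of the T-box pair in Th1, 81.0% ± 1.10 in CD8, 87.2% ± 3.61 in Th17 and 73.7% ± 7.43 in Treg. T-bet mRNA was therefore the more abundant of the pair in every cell type. By FPKM it ranked 19 of 934 annotated transcription factors in Th1 and 17 in CD8, against 256 in Treg and 484 in Th17. Eomes ranked 117 in CD8, 230 in Th1, 502 in Treg and 769 in Th17. In bulk RNA, fewer cells with a transcript and less of it per cell cannot be told apart.

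The promoters of the T-box pair are shown because these genes had the widest range between cell types among the members at more than 10 CPM in some type. The sequences are RefSeq's, on GRCm38.p6, from 250 bases before to 50 after the annotated start: chr11:97115282-97115581 on the minus strand for Tbx21 and chr9:118477939-118478238 on the plus strand for Eomes. Capitals mark the GC box GGGCGG, the CCAAT box (CCAAT) and the TATA box (TATANAA), searched on both strands, so that ATTGG is a CCAAT box on the other strand.
Tbx21: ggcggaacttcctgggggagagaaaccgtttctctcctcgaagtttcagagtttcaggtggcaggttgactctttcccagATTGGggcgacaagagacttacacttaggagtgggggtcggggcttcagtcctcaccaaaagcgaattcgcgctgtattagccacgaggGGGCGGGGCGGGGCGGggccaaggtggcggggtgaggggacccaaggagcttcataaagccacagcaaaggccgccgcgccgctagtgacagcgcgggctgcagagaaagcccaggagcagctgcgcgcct
Eomes: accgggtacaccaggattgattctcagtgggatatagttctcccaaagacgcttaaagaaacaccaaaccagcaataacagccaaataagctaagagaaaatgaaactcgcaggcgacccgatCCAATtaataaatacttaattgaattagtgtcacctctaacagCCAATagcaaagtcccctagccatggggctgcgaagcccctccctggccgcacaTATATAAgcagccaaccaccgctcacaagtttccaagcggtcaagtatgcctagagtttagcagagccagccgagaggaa
The Tbx21 window holds 3 overlapping GC boxes, the first 81 bases before the start, and 1 CCAAT box, and its GC content is 62.0%. The Eomes window holds a TATA box 30 bases before the start and 2 CCAAT boxes, and its GC content is 47.3%. Of the 32851 mouse promoter windows, 35.7% hold a GC box, 37.4% a CCAAT box and 11.4% a TATA box. A T-box core (TCACACC) or a Runx core (ACCACA) is in neither window, while 3.98% and 16.8% of all windows hold one.

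**Figure D1:**
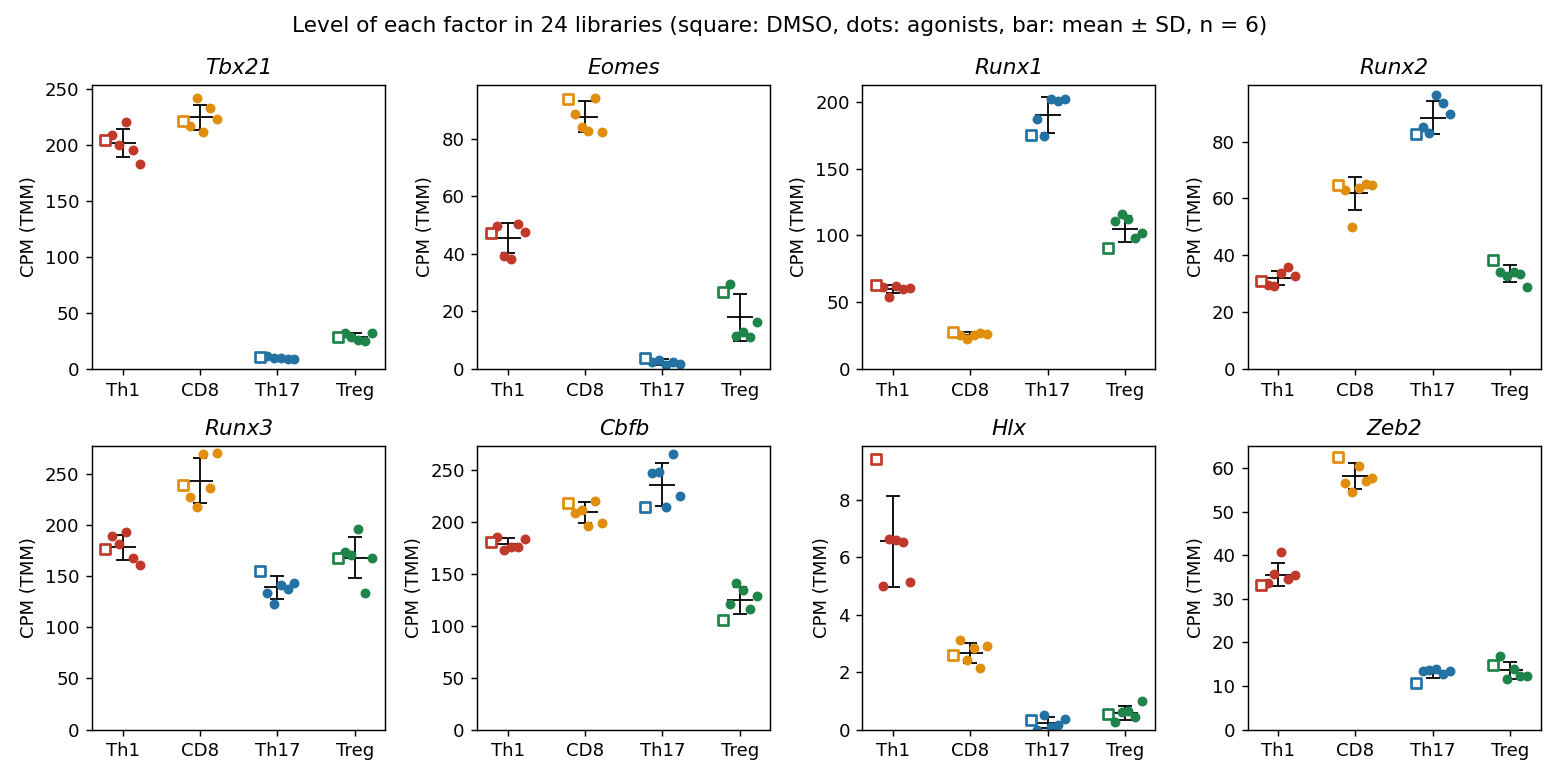
Level of the 8 genes in each of the 24 libraries, in CPM on linear axes from 0; squares are DMSO, dots are the 5 agonists, and black bars are the mean ± SD of 6 libraries. Tbx21, Eomes, Hlx and Zeb2 are high in Th1 and CD8, Runx1 runs the other way with Th17 highest and CD8 lowest, and the DMSO and agonist libraries of a cell type lie close together for most genes.

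The 3 Runx genes followed 3 different orders. Runx1 (ENSMUSG00000022952, chromosome 16, 92398354 to 92623037, minus strand) was highest in Th17 (174 to 202 CPM, median 194), followed by Treg (90.5 to 116, median 106), Th1 (54.0 to 62.5, median 60.9) and CD8 (22.5 to 27.9, median 25.8). No ranges overlapped and each step passed the test, so that Th17 exceeded CD8 7.37-fold (log2 difference 2.88 ± 0.07, edgeR adjusted p = 1.06e-21). Its order was the reverse of that of Eomes for CD8, Th1, Treg and Th17. The Th1 and Treg step depended on gene length: with counts corrected for the length trend it shrank from 0.81 to 0.22 on the log2 scale (adjusted p = 0.0572).

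Runx3 (ENSMUSG00000070691, chromosome 4, 134847963 to 134905301, plus strand) was highest in CD8 (217 to 270.0 CPM, median 237). Th1 (161 to 193, median 179) and Treg (134 to 196, median 169) overlapped and did not differ beyond their spread (log2 difference 0.09 ± 0.07, edgeR adjusted p = 0.241). Th17 was lowest (122 to 155, median 139), 1.75-fold below CD8 (adjusted p = 1.31e-10) and 1.28-fold below Th1 (adjusted p = 8.25e-05). Treg exceeded Th17 1.21-fold (adjusted p = 0.000827) although their ranges overlapped, and this call was lost with the correction for gene length (adjusted p = 0.278), whereas Th1 over Treg was then called (0.25, adjusted p = 0.0152). The range of Runx3 over cell types was thus narrow beside that of Tbx21.

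Runx2 (ENSMUSG00000039153, chromosome 17, 44806874 to 45125684, minus strand), best known as the master factor of bone formation, was highest in Th17 (82.8 to 96.6 CPM, median 87.4) and next in CD8 (50.01 to 65.3, median 64.1). Treg (28.8 to 38.3, median 33.8) and Th1 (29.3 to 35.8, median 31.8) were lowest and overlapped (log2 difference 0.07 ± 0.07, edgeR adjusted p = 0.341). With the correction for gene length Th1 exceeded Treg by 0.35 (adjusted p = 0.00231). Th17 exceeded CD8 1.43-fold (adjusted p = 2.80e-07) and Th1 2.76-fold (adjusted p = 6.77e-16). The summed level of 10 stromal and bone markers, of which 2 passed the filter on reads, was at most 3.84 CPM in any library. Runx2 and Eomes both separated CD8 from Th1 by close to 0.95 on the log2 scale, Runx2 by 0.95 ± 0.07 (adjusted p = 7.67e-11).

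By FPKM, Runx3 held most of the summed level of the Runx genes in every cell type, but by different margins. In Th17 this depends on the division by the gene length of the deposited table, 12025 bases for Runx1 and 5003 for Runx3. In CPM, Runx1 had the higher mean there, 190 against 139 for Runx3. Of the summed FPKM of the 3 genes Runx3 took 84.1% ± 1.13 (SD, n = 6) in CD8 and 80.5% ± 1.54 in Th1. It took 72.7% ± 2.06 in Treg and 51.8% ± 2.36 in Th17. Runx1 took 29.5% ± 1.51 in Th17, 19.0% ± 1.66 in Treg, 11.3% ± 0.783 in Th1 and 3.72% ± 0.292 in CD8. The Runx1 ranges did not overlap between any of the cell types, with 26.5% to 30.5% in Th17 against 3.35% to 4.05% in CD8. The shares are not corrected for the length trend of the Treg libraries, with which the Runx1 step between Th1 and Treg shrank to 0.22 on the log2 scale (edgeR adjusted p = 0.0572). The share of Runx2 was 18.7% ± 0.952 in Th17, 12.1% ± 0.882 in CD8 and near 8% in Th1 (8.22% ± 0.895) and Treg (8.30% ± 1.10). The sum itself varied less, from a mean of 44.2 FPKM in Th1 to 57.7 FPKM in CD8.

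**Figure D2:**
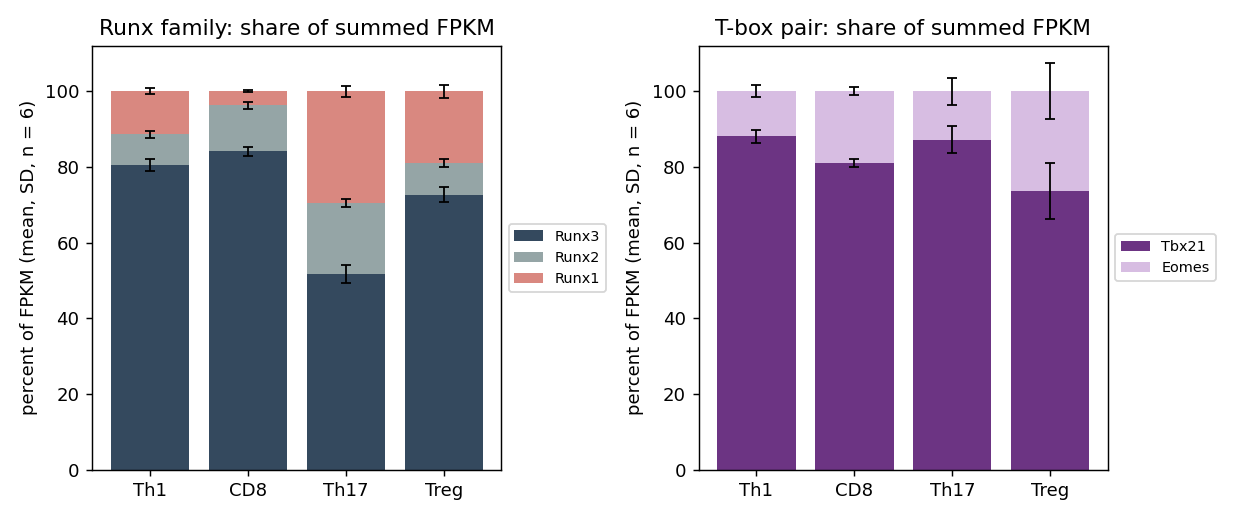
Share of each gene in the summed FPKM of the 3 Runx genes (left) and of the 2 T-box genes (right), in percent, as stacked means with SD over 6 libraries of each cell type. Runx3 falls from 84.1% in CD8 to 51.8% in Th17 while Runx1 rises from 3.72% to 29.5%.

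A promoter window of each of the 3 Runx genes holds the same stretch of 17 bases with 2 Runx cores. RefSeq gives Runx1 and Runx3 a second window each, and these hold 0 matches to the stretch or to the core. The stretch is printed with its neighbouring bases because all 3 genes carry it. Counts per gene do not tell which promoter was used, and whether the run bears on the levels was not tested. The sequences are from RefSeq on GRCm38.p6, at chr16:92826025-92826062 (minus strand), chr17:44814578-44814620 (minus strand) and chr4:135120495-135120541 (plus strand), and capitals mark the run.
Runx1: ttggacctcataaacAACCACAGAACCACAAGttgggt
Runx2: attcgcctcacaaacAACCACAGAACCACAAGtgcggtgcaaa
Runx3: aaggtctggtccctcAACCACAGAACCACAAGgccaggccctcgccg
In the windows that hold it, the run starts 28 bases after the annotated start in Runx1, 23 bases after it in Runx2 and 135 bases before it in Runx3. Of 32851 promoter windows, 4 hold it, those of the 3 Runx genes and of Gm16225, whose window overlaps that of Runx3 on the other strand. The core ACCACA alone is in 16.8% of windows. These are matches of letters, and binding was not measured.

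Cbfb (ENSMUSG00000031885, chromosome 8, 105897306 to 105944621, plus strand), the subunit that raises the DNA binding of all Runx proteins, was lowest in Treg. Its Treg libraries lay between 106 and 142 CPM (median 125) and its Th1 libraries between 173 and 186 (179). CD8 spanned 196 to 221 CPM (211), and Th17 spanned 215 to 266 (237). Every Treg library lay below every library of the other types. Th17 exceeded Treg 1.89-fold (log2 difference 0.92 ± 0.07, edgeR adjusted p = 1.46e-12). The step from CD8 to Th17 was 0.17 ± 0.06 with overlapping ranges (edgeR adjusted p = 0.0318). It missed the threshold in 10 of 20 alternatives, among them leaving out the CD8 library with WMS-200, WMS-64, WMS-75 or WMS-83 or the Th17 library with WMS-200, WMS-64 or WMS-76 (adjusted p from 0.0632 to 0.116). The step from Th1 to CD8 (0.22 ± 0.06, adjusted p = 0.0180) missed it in 4 of 19, which were the gene-length correction (0.263) and leaving out the Th1 library with WMS-64 (0.0639) or WMS-76 (0.0525) or the CD8 library with DMSO (0.0728). Per unit of Cbfb FPKM, the summed Runx FPKM had a median of 1.28 in Treg (1.16 to 1.49). The median was 0.910 in CD8, 0.855 in Th1 and 0.793 in Th17, and 1.12 was the highest value in a library that was not Treg. These ratios are not corrected for the length trend of the Treg libraries, and the Runx genes (5003 to 12025 bases) are longer than Cbfb (3480). With the correction, Th1 minus Treg rose from -0.81 to -0.22 for Runx1 on the log2 scale. It rose from -0.07 to 0.35 for Runx2 and from 0.09 to 0.25 for Runx3. That of Cbfb lay between 0.47 and 0.58 over all alternatives. The ratio was not computed with corrected counts.

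Hlx (ENSMUSG00000039377, chromosome 1, 184459337 to 184464816, minus strand) had the lowest counts of the 8. It spanned 4.98 to 9.41 CPM in Th1 (median 6.57) and 2.14 to 3.11 in CD8 (2.71). In Treg it spanned 0.272 to 0.987 CPM (0.563) and in Th17 0 to 0.510 (0.237), where the libraries held 0 to 10 counts. Th1 lay above all other types, which set Hlx apart from Tbx21, Eomes and Zeb2. Th1 exceeded CD8 2.41-fold (log2 difference 1.27 ± 0.28, edgeR adjusted p = 0.00151) and Treg 11.4-fold (3.51 ± 0.32, adjusted p = 1.45e-10). Treg and Th17 overlapped, and their difference of 1.27 ± 0.41 rests on few reads (adjusted p = 0.00723).

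Zeb2 (ENSMUSG00000026872, chromosome 2, 44873644 to 45007407, minus strand) spanned 54.5 to 62.5 CPM in CD8 (median 57.4) and 33.3 to 40.7 in Th1 (35.1). It spanned 11.6 to 16.9 CPM in Treg (13.2) and 10.6 to 13.8 in Th17 (13.4), and the last 2 ranges overlapped. CD8 exceeded Th1 1.64-fold (log2 difference 0.71 ± 0.08, edgeR adjusted p = 2.53e-07), and Th1 exceeded Treg 2.61-fold (adjusted p = 6.05e-14). Treg and Th17 did not differ beyond their spread (0.07 ± 0.09, adjusted p = 0.446). Zeb2 is a long gene, with a gene length of 20203 bases in the deposited table. With the correction for gene length Th17 exceeded Treg by 0.57 (edgeR adjusted p = 3.83e-05).

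By pairs of cell types, all 8 members passed the test between Th1 and Th17, where 47.3% of all genes tested passed. Of these, 5 were higher in Th1 (24.1% of all genes) and 3 lower (23.2%). Between Th17 and CD8 all 8 passed against 47.1% of all genes, 3 higher in Th17 (22.8%) and 5 lower (24.3%). Between Th1 and CD8, the pair with the fewest genes called, 7 passed against 16.0% of all genes. Runx1 and Hlx were higher in Th1 (7.26%) and 5 members were lower (8.69%). The background was far higher with Treg. Of the 8, 6 passed between Th1 and Treg against 77.5% of all genes, 5 higher in Th1 (37.3%) and 1 lower (40.1%). Between Th17 and Treg 7 passed against 74.9%, 3 higher in Th17 (36.5%) and 4 lower (38.3%), and between Treg and CD8 all 8 passed against 78.0%, 1 higher in Treg (40.2%) and 7 lower (37.8%). The counts with Treg are thus near the background. Ranges did not overlap for 8 members between Th1 and Th17 (31.7% of all genes), 6 between Th1 and Treg (58.4%), 5 between Th17 and Treg (54.1%), 7 between Th17 and CD8 (32.4%) and 8 between Treg and CD8 (59.2%). The ranges of 7 members did not overlap between Th1 and CD8, where this held for 13.7% of all genes. The median absolute log2 difference of the members between Th1 and CD8 was 0.83 beside 0.17 over all genes tested. Eomes, Runx1, Cbfb and Hlx passed in all 6 pairs, as did 4.80% of all genes. Hlx held 0 to 10 counts per library in Th17 and 6 to 20 in Treg. It passed the filter on reads through Th1 and CD8, so its calls with the other types are tied to that filter. The Hlx call between Th17 and Treg was lost in 1 of 20 alternatives, and the Cbfb call between Th17 and CD8 in 10 of 20.

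**Figure D3:**
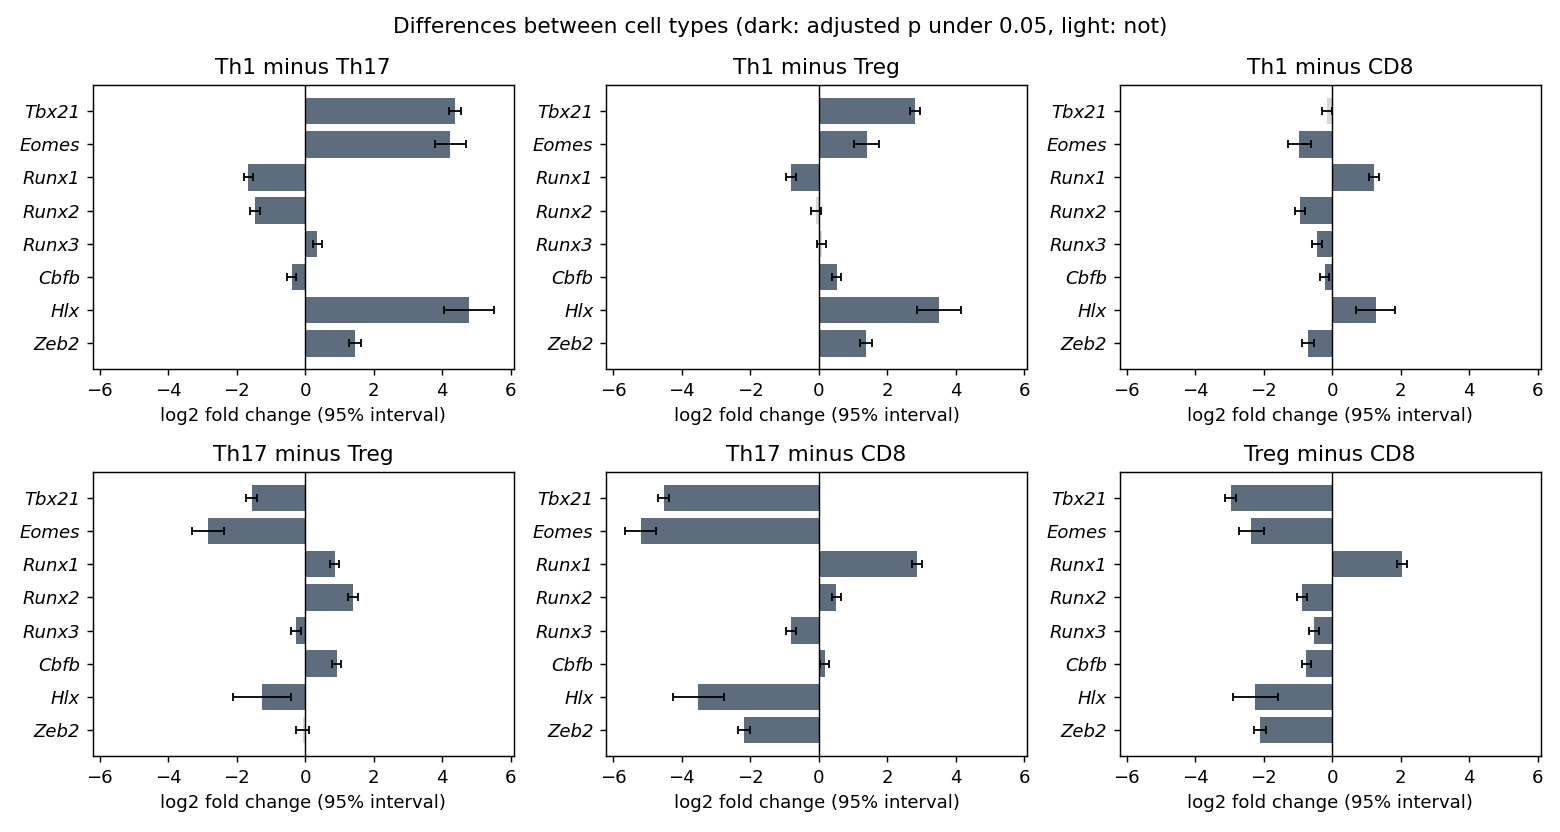
Log2 fold change of the 8 genes between each pair of cell types, first named minus second, with 95% intervals; dark bars passed the test and light bars did not. Runx1 points the opposite way from Tbx21 and Eomes in every pair, by 2.88 between Th17 and CD8.

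Known targets of these factors were read beside them. Of 20 type 1 targets listed, 18 passed the filter on reads. Between Th1 and CD8 1 was higher in Th1 (7.26% of all genes) and 12 were higher in CD8 (8.69%). The median log2 difference of the 18 was -1.13 beside 0.00 over all genes. As Th1 minus CD8, Tbx21 differed by -0.16, Cbfb by -0.22, Runx3 by -0.45, Zeb2 by -0.71, Runx2 by -0.95 and Eomes by -0.96. Runx1 (1.22) and Hlx (1.27) went the other way. Gzmb, the cytotoxic protease granzyme B, was at 153 CPM in Th1 and 1913 in CD8 (log2 difference -3.64 ± 0.16, edgeR adjusted p = 6.66e-13). Prf1, which encodes the pore-forming protein perforin, was at 7.95 and 71.1 CPM (-3.17 ± 0.16), and the chemokine gene Xcl1 was at 26.6 and 386 CPM (-3.86 ± 0.14).

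Between Th1 and Th17 8 targets were higher in Th1 (24.1% of all genes) and 5 lower (23.2%). Between Th1 and Treg 11 were higher in Th1 (37.3%) and 5 lower (40.1%). Against CD8, 3 were higher in Th17 (22.8%) and 14 lower (24.3%). In Treg 6 were higher than in CD8 (40.2%) and 12 lower (37.8%). Between Th17 and Treg 8 targets were higher in Th17 (36.5%) and 10 lower (38.3%). Treg held 2.95-fold more Tbx21 and 7.16-fold more Eomes than Th17. Ifng was higher in Th17 (2.23 to 7.38 CPM) than in Treg (0.0493 to 0.414 CPM, a very low level). The log2 difference was 4.25 ± 0.31 (edgeR adjusted p = 3.25e-11). Gzmb, at a mean of 167 CPM in Th17 and 4.36 in Treg, and Prf1, at 9.65 and 0.521 CPM, were also higher in Th17. Beside these values, the summed level of the 4 CD8 markers, which include Gzmb and Prf1, was 177 to 440 CPM in Th17 libraries and 15.5 to 22.2 CPM in Treg libraries. The summed level of 12 natural killer markers, of which 5 passed the filter, was 13.4 to 30.2 CPM in Th17 and 3.49 to 5.25 CPM in Treg. The largest means in Th17 were those of the granzyme gene Gzma (9.01 CPM) and of Klra7 (5.04 CPM). Ncr1 and Klrb1c, also on that list, had means of 0.0425 and 0.0255 CPM in Th17 and 0.0152 and 0.253 CPM in Treg. Whether the levels of the factors or cells with these markers had a part in the differences was not tested.

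The inducers of the type 1 program gave a count without a common direction. All 17 listed were measured, and between Th1 and Th17 8 were higher in Th1 (24.1% of all genes) and 8 lower (23.2%). Il12rb2, a chain of the interleukin 12 receptor, had a mean of 290 CPM in CD8, 255 in Th1, 46.2 in Treg and 7.80 in Th17. Stat4, the signal transducer of that receptor, had means of 101, 94.9, 49.4 and 11.5 CPM in the same order. For these 2 genes every Th1 and CD8 library lay above every Treg library, and every Treg library lay above every Th17 library. Over all genes, ranges did not overlap for 58.4% between Th1 and Treg, 59.2% between Treg and CD8 and 54.1% between Th17 and Treg. Il12rb2 is also on the list of type 1 targets. Other genes of the same pathway had other orders. Il12rb1, the second chain of the receptor, had means of 297 CPM in Th1, 210.0 in CD8, 95.7 in Th17 and 69.5 in Treg. The kinase gene Jak2 had 631 CPM in Th1 and 340.1 in CD8 (log2 difference 0.89 ± 0.06, edgeR adjusted p = 2.20e-11). Ifngr2, a chain of the interferon gamma receptor, was highest in Th17, at 60.7 CPM in Th17, 47.4 in Treg, 17.02 in Th1 and 12.1 in CD8. Between Th17 and CD8 its log2 difference was 2.34 ± 0.09 (edgeR adjusted p = 8.57e-18).

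Genes silenced by Runx proteins were read at Cd4 and Zbtb7b, the CD4 lineage factor ThPOK. Of 6 listed genes 5 passed the filter, and 2 of them were higher in Th1 than in CD8 (7.26% of all genes) and 1 lower (8.69%). Against CD8, both were higher in Th1, Th17 and Treg, and Cd4 exceeded CD8 by 2.06 ± 0.06 in Th1, 1.33 ± 0.06 in Th17 and 1.79 ± 0.06 in Treg on the log2 scale. Zbtb7b, at a mean of 89.3 CPM in CD8 and 144 to 163 in the CD4 types, exceeded it by 0.68 to 0.87. Of 16 Runx and Cbfb partners listed, 15 passed the filter. Of these, 10 were higher in Th17 than in CD8 (22.8% of all genes) and 1 lower (24.3%). Between Th17 and Treg 5 were higher in Th17 (36.5%) and 6 lower (38.3%). Between Th1 and CD8 2 were higher in Th1 (7.26%), 1 was lower (8.69%) and 12 were not called. The corepressor Tle2 was highest in Treg, at 28.0 CPM against a mean of at most 5.84 CPM in the others. The Th1 minus Treg log2 difference was -3.48 ± 0.22 (edgeR adjusted p = 4.23e-13).

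Other genes whose log2 CPM followed a member over the 24 libraries were ranked by Pearson r among 11476 genes. The libraries share cell type and depth, so r mostly describes differences between the 4 types. For Tbx21 they were Crem (r = 0.992), Serpinb9 (0.991) and AW112010 (0.990), and for Eomes they were Il10ra (0.986), Serpine2 (0.982) and A530040E14Rik (0.978). For Runx1 they were Ccr8 (0.984), Rgs10 (0.973) and Angptl2 (0.971). For Runx2 they were Cxcr6 (0.955), Il2rb (0.930) and Dnajb9 (0.920). For Runx3, which varied least, they were Nedd4 (0.914), BC035044 (0.912) and Iqsec1 (0.909), and only 5 genes passed 0.9 against 207 for Tbx21. For Cbfb they were Degs1 (0.984), Rngtt (0.978) and Rragc (0.973), for Hlx Mcu (0.952), Cnn3 (0.951) and Ly9 (0.950), and for Zeb2 Dcun1d3 (0.982), Slc2a3 (0.981) and Fam107b (0.981).

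Levels of most of these factors with the agonists lay close to those with DMSO. With the mean of the 5 agonists against DMSO over the 4 cell types, edgeR called 0 of 8 members, where 0% of all genes tested passed. DESeq2 and limma-voom also called 0 members, and 1 member, Eomes, had an unadjusted p under 0.05, as had 3.17% of all genes. The log2 differences of the other 7 lay between -0.28 (Hlx) and 0.08 (Cbfb). For Tbx21 the difference was -0.04 ± 0.07, with a 95% interval from -0.17 to 0.10. The intervals of Tbx21, the 3 Runx genes, Cbfb and Zeb2 lay within 0.5 on either side of 0, so larger shared effects on these 6 lie outside the intervals. Those of Eomes (-0.73 to -0.03, adjusted p = 0.992 with edgeR) and Hlx (-0.89 to 0.33) did not.

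Single compounds, which share the 4 DMSO libraries as controls, gave 40 values, of which edgeR, DESeq2 and limma-voom called 0. In edgeR 0% of all genes passed with each compound, and in limma-voom 0 to 5 genes did. Of the 40, 2 had an unadjusted p under 0.05, both for Eomes, and over all genes this share was 1.55% with WMS-200, 6.43% with WMS-64, 3.45% with WMS-75, 3.07% with WMS-76 and 3.90% with WMS-83. The Eomes difference was -0.61 ± 0.22 with WMS-75 (95% interval -1.08 to -0.15, edgeR adjusted p = 1.00) and -0.48 ± 0.23 with WMS-64 (adjusted p = 0.752). With WMS-200 the Eomes difference was -0.02 ± 0.22. Without a filter on low counts the WMS-75 value was called (edgeR adjusted p = 0.00210, the lowest over 10 alternatives, where the highest was 1.00). In the libraries themselves Eomes with WMS-75 was below DMSO in all 4 cell types, at 38.4 against 47.3 CPM in Th1, 82.8 against 93.8 in CD8, 1.31 against 3.71 in Th17 and 12.7 against 26.8 in Treg. In Th17 and Treg these libraries also differ from DMSO in their WT number.

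The 5 compounds, at the same stated dose, were also compared with each other in 10 pairs, which gave 80 values. Of these, 0 were called by edgeR (adjusted over all genes tested within each pair), DESeq2 or limma-voom. In edgeR 0% of all genes passed in 9 of the pairs, and 0.00630% passed between WMS-200 and WMS-76. DESeq2 called 0 to 5 genes in a pair and limma-voom 0 to 3. An unadjusted p under 0.05 was found for 5 values. The estimate for Eomes was higher with WMS-200 than with WMS-75 (3.31% of all genes in that pair), and that for Runx3 with WMS-75 than with WMS-64 (8.70%) or WMS-76 (3.40%). The estimate for Runx2 was lower with WMS-64 than with WMS-75 or WMS-76 (1.65%). In the other 6 pairs 0 members had one, with 4.00%, 2.40%, 4.24%, 3.25%, 6.84% and 1.80% of all genes. Between WMS-64 and WMS-75 the Runx2 difference was -0.21 ± 0.08 (95% interval -0.38 to -0.04, adjusted p = 0.566). For Tbx21, Runx1, Runx2, Runx3, Cbfb and Zeb2 the intervals of all 10 pairs lay within 0.5 on either side of 0. For Eomes this held for 1 pair, with 9 within 1, and for Hlx for 0 pairs, with 4 within 1, so these data do not show that the compounds act alike on Eomes and Hlx. An F-test among the 5 agonists called 0 members, where 0% of all genes passed, and 0 members had an unadjusted p under 0.05 (2.80% of all genes).

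**Figure D4:**
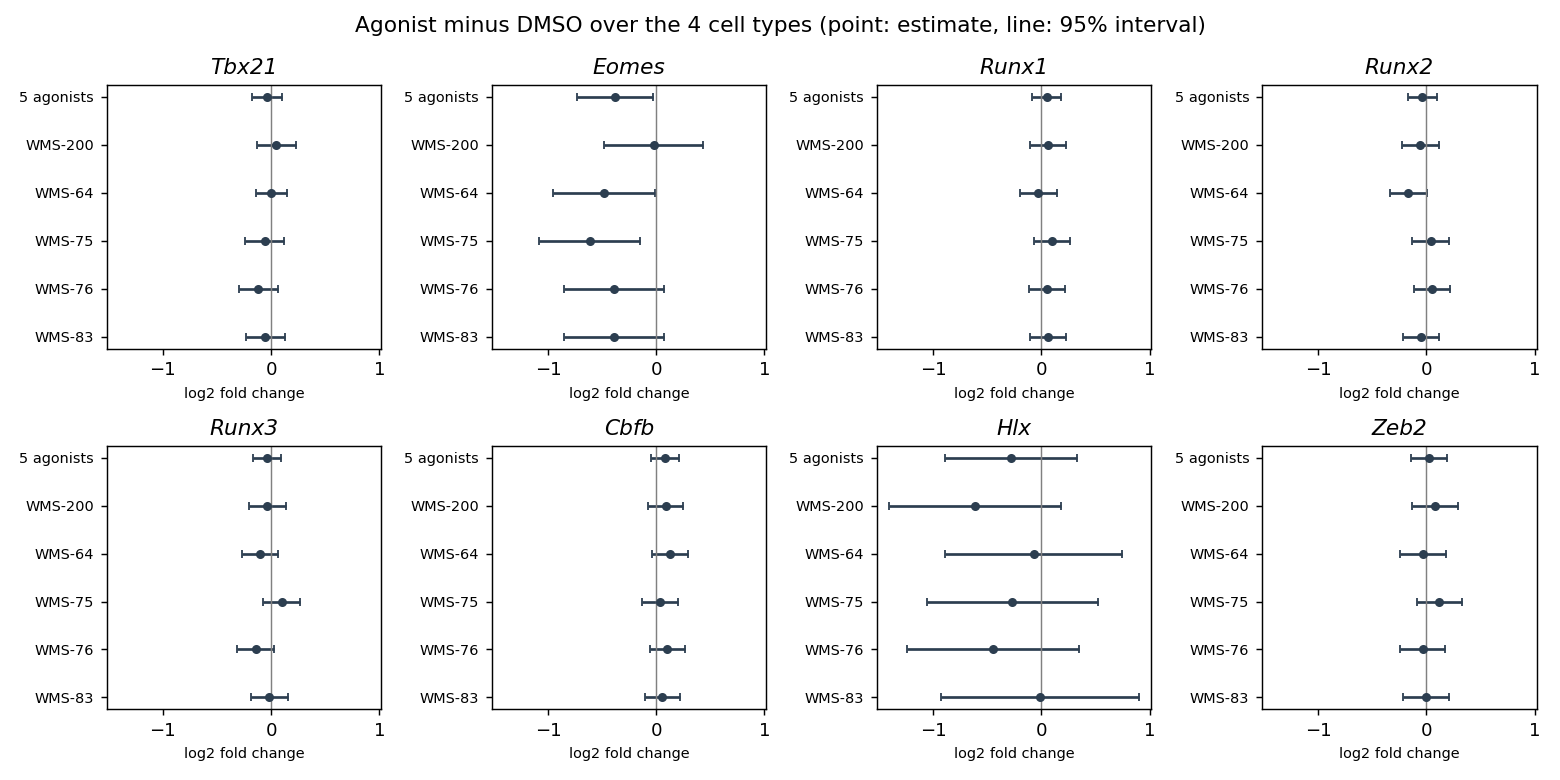
Log2 fold change against DMSO over the 4 cell types for the 5 agonists together and each alone, as estimates with 95% intervals on a shared axis. The intervals are narrow and around 0 for Tbx21, the Runx genes, Cbfb and Zeb2, and wide for Eomes and Hlx, whose lowest estimates are -0.61 with WMS-75 and -0.61 with WMS-200.

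Inside a cell type the 5 agonist libraries were set against 1 DMSO library, whose spread was taken to equal that of the other groups. In Th1, CD8, Th17 and Treg edgeR called 0 of 8 members, where 0%, 0.00630%, 0.0378% and 8.82% of all genes passed, and DESeq2 and limma-voom also called 0. At an unadjusted p under 0.05 there were 0 members in Th1 (3.25% of all genes), CD8 (2.01%) and Th17 (3.34%) and 2 in Treg, Runx1 and Cbfb (23.0%). The test of whether the agonist effect differs between cell types also called 0 members (0.176% of all genes), and 0 had an unadjusted p under 0.05 (12.9%). The DMSO library lay outside the range of its 5 agonist libraries for 3 members in Th1, 2 in CD8, 5 in Th17 and 3 in Treg, where it did so for 33.2%, 28.1%, 29.0% and 48.4% of all genes.

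In Treg 3 members had DMSO at one end. Runx1 was at 90.5 CPM with DMSO and 98.0 to 116 with the agonists (log2 difference 0.25 ± 0.11, edgeR adjusted p = 0.169). Cbfb was at 106 CPM with DMSO and 116 to 142 with the agonists (0.28 ± 0.11, adjusted p = 0.129). Runx2 was at 38.3 CPM with DMSO and 28.8 to 34.1 with the agonists (-0.23 ± 0.13, adjusted p = 0.322). The Eomes difference was -0.73 ± 0.36 (adjusted p = 0.236). Without the Treg library with WMS-200 it was -1.07 and was called (adjusted p = 0.000647). Over all 11 alternatives this difference lay between -1.07 and 0.13, with adjusted p up to 0.926.

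The Treg values for Eomes move with the WT number. DMSO and WMS-200 share WT number 3, and the other 4 share WT number 2. The Treg markers moved with it too: Foxp3 was at 162 to 208 CPM in the pair with number 3 and 290 to 357 CPM in the other 4 and Ikzf2 (Helios) at 1103 to 1137 against 540 to 601. What the number stands for is not given, and 4 of the 5 agonists cannot be told apart from it in Treg. Zeb2 showed the same split, at 14.8 and 16.9 CPM with number 3 and 11.6 to 14.0 with number 2, while Tbx21 overlapped (28.7 and 32.1 against 24.6 to 32.3).

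**Figure D5:**
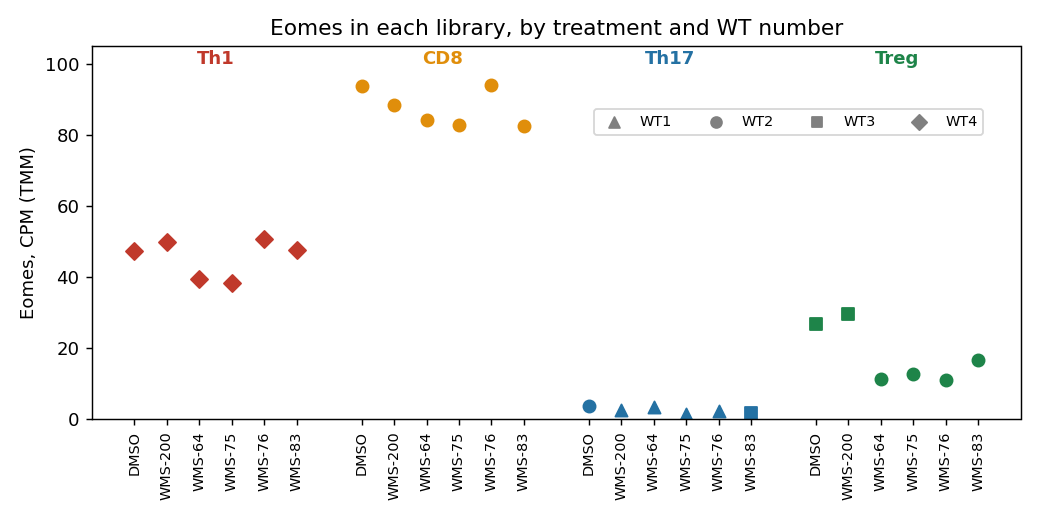
Eomes in each library in CPM on a linear axis, by cell type and treatment, with the marker shape giving the WT number from the column names. In Treg the pair of libraries with WT number 3 stands at 26.8 and 29.4 CPM above the 4 with number 2 (11.01 to 16.4 CPM), and 1 of that pair is DMSO.

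In Th17, Zeb2 was at 10.6 CPM with DMSO and 12.7 to 13.8 with the agonists (0.33 ± 0.17, edgeR adjusted p = 1.00), and Eomes was at 3.71 CPM with DMSO and 1.31 to 3.21 with the agonists (-0.76 ± 0.57, adjusted p = 1.00). In Th1, Hlx was at 9.41 CPM with DMSO and 4.98 to 6.61 with the agonists (-0.65 ± 0.47, adjusted p = 1.00). These 3 had DMSO beyond all 5 agonist libraries without passing the test. Among the targets, Gzmb was lower with the agonists in Th17 (272 CPM with DMSO, 113 to 183 with agonists, -0.90 ± 0.15, adjusted p = 0.0116) and Fasl, which encodes the death ligand FasL, was higher (3.01 against 5.82 to 11.0 CPM, 1.55 ± 0.29, adjusted p = 0.0244). The Th17 DMSO library is the only one of its type with WT number 2, so treatment and number cannot be told apart there. In Treg 3 of 18 targets were called, all higher, beside 8.82% of all genes: Gzmb, Bhlhe40 and Tnfsf11. There too 4 of the 5 agonist libraries differ from DMSO in WT number, and agonist and number cannot be told apart for them. These target genes were named because they were few, after their values were seen.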

How the data were processed

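Libraries were enriched for poly(A) RNA from total RNA extracted with a column kit, per the labels' protocols. The deposited values are whole-number read counts for each gene. The submitters' processing notes name fastp, HISAT2 and featureCounts for the authors' work up to these counts. The sources used here state no version, strand setting, genome build or annotation, so overlapping and antisense genes may share reads. All 24 columns were matched to labels, with 0 left over.

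Genes were filtered with filterByExpr by cell type (minimum count 10), scaled by TMM and fitted with edgeR 4.0.16 (quasi-likelihood, robust) in R 4.3.3. One model had cell type and compound (15 residual degrees of freedom). The other had agonist or DMSO within cell type (16). P-values were adjusted over all 15885 genes by Benjamini and Hochberg, with a threshold of 0.05. Errors are standard errors unless called SD. Log2 CPM for ranking used a prior count of 2. DESeq2 1.42.0 and limma 3.58.1 were alternatives, as were other scaling, no filter, gene-length offsets (loess span 0.5), the WT number as a block and leaving out libraries. The code was tested on simulated data.

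The members, gene lists and comparisons were chosen with earlier results of these data known. All members are named, with up to 3 called genes per list and pair and the 3 genes most like each member. Protein sequences were not used here. Promoters are from RefSeq, GRCm38.p6.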

Additional observations from a re-analysis of the deposited data

Results flagged for a closer look

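In each of the 32 groups of 6 libraries (8 genes in 4 cell types), the gap of the highest or lowest library to its neighbour was compared with the range of the group. A gap above 0.625 of the range was taken as standing apart, which chance gives in about 5% of groups, and 5 groups were found. Runx1 in Th1 was lowest with WMS-64, at 54.0 CPM, with the next library at 59.5. Runx2 in CD8 was lowest with WMS-64, at 50.01 CPM, with the other 5 between 62.9 and 65.3. Hlx in Th1 was highest with DMSO, at 9.41 CPM, with the next at 6.61. Zeb2 in Th1 was highest with WMS-75, at 40.7 CPM, with the next at 35.7. Zeb2 in Th17 was lowest with DMSO, at 10.6 CPM, with the next at 12.7. Each is 1 library without a repeat, and the causes were not tested.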

How the results depend on the processing

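Of 959 values of single members between cell types under the alternatives, 932 stayed called in the same direction or, where not called, stayed uncalled and moved by at most 1 standard error (a sign change near 0 included). Of the rest, 18 were no longer called, 3 were newly called, 2 reversed and 4 moved. Both reversals came with the gene-length offsets: Runx2 between Th1 and Treg (0.35, from -0.07) and Zeb2 between Th17 and Treg (0.57, from -0.07). The number of members called between cell types stayed within 1.5 times the count reported under each alternative. Of 832 agonist values, 776 stayed uncalled and moved by at most 1 standard error, 3 were newly called and 53 moved. Of the agonist counts of 0, 4 changed to 1: any single compound and pairs of compounds without the filter on low counts (1 each), the agonists in Th17 with the WT number as a replicate block (1, Eomes, -2.34, adjusted p = 0.0246), and the agonists in Treg, which ranged from 0 to 1 when a library was left out. The WT numbers were not shown to pair samples. The difference between numbers 3 and 2 had r = -0.10 between Treg and Th17 over 11483 genes, and only this comparison was possible. It cannot decide whether the numbers pair samples, because number and treatment change together in it. In Th17 it sets 1 agonist library (number 3) against the DMSO library (number 2). In Treg the DMSO library is on the side of number 3, and every library with number 2 had received an agonist. With the block, 5 members were called between Th17 and Treg (Runx3 lost, and Hlx lost at -0.79, adjusted p = 0.265), 7 between Th17 and CD8 (Cbfb lost) and 8 between Treg and CD8. Over all genes, the block lowered the number of agonist calls in Treg to 17 (1401 without it) and raised those in Th17 to 102 (6 without it), so which type has more calls depends on it, and the Eomes difference in Treg was 0.13. Pairs with Th1 could not be fitted with it, since all Th1 libraries carry number 4. The 0 to 10 counts of Hlx per Th17 library, and 1 library per combination, limit what can be seen.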

Other observations

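Of 16 other T-box genes listed, 3 passed the filter on reads. Tbx6, known from mesoderm formation, was highest in Treg, at 14.1 to 40.9 CPM against at most 10.0 CPM in any other library (Treg minus CD8 2.84 ± 0.24 on the log2 scale, edgeR adjusted p = 1.48e-10). Mga, a repressor that carries a T-box, was at a mean of 205 CPM in Treg, 173 in Th17, 144 in CD8 and 135 in Th1.

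Of 12 factors of opposing lineages, all measured, 6 were lower and 2 higher in Th1 than in Th17 (23.2% and 24.1% of all genes), and 9 were lower and 2 higher in Th1 than in Treg (40.1% and 37.3%). Maf, which drives interleukin 10 and Th17 genes, was at 425 CPM in Th17, 84.8 in Treg, 6.52 in Th1 and 5.74 in CD8. Ikzf2 was at 753 CPM in Treg and at most a mean of 14.4 CPM elsewhere. Of 17 effector differentiation factors, 16 passed. Between Th1 and CD8 5 were higher in Th1 (7.26% of all genes), 0 were lower (8.69%) and 11 were not called. Among the 5 were Batf (0.43 ± 0.08 on the log2 scale, edgeR adjusted p = 0.000303) and Irf4 (0.39 ± 0.08, adjusted p = 0.00110), whose products bind DNA together. Tox2 was at a mean of 15.2 CPM in Th17 and 8.07 in Treg against 0.877 in Th1 and 0.127 in CD8.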
